A study of Mus musculus with 10 samples.

Results

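DamID-seq in mouse embryonic fibroblasts (MEFs) placed 5 or more ZFP266 peaks in 278 of 20020 autosomal protein-coding genes (1.39%). ZFP266 is a zinc finger protein with a KRAB domain, and these 278 genes are the subject here. They were chosen by the number of deposited peaks that overlapped the gene body, from the first to the last base of its curated RefSeq transcripts on GRCm38, and *Zfp266* itself was left out. The number of peaks per gene and the density of peaks in these genes are therefore descriptions of the choice and carry no test. Large genes offer more room for peaks, so each count was read against gene length.

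The peaks came from wild-type MEFs of the 129 strain, 5 samples of which received a plasmid that encodes Dam-ZFP266 and the other 5 one that encodes Dam alone (Dam only). Both plasmids used the PGK promoter to drive mOrange followed by the Dam protein, which is translated only when the ribosome reinitiates, and the cells kept their own *Zfp266*. Cells were collected 48 h later, those positive for mOrange per the labels, or for GFP per the study's methods, were sorted, and 32 ng of genomic DNA was used for each sample. The deposited list is wider than the criteria that the methods give as an example, a false discovery rate under 0.05 and a log2 fold change above 1. It reaches a q-value of 0.1, and 11 of the 278 genes held 5 or more peaks when only peaks with a q-value under 0.05 and a signal value above 1 were counted, although it is not stated whether the signal value is that fold change. The list of peaks pools all 10 samples, so the values below have no replicate error, the depth of each sample is unknown, and 95% intervals cover counting error only.

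In DamID the bacterial methyltransferase Dam marks the adenine of GATC sites near the place where the fused protein sits, and the Dam only samples record where chromatin is open to Dam itself. The unit of measurement is the DNA fragment between neighbouring GATC sites: each of the 15119 peaks began and ended at one. KRAB zinc finger proteins bind DNA through arrays of zinc fingers and recruit TRIM28 and histone methyltransferases, and many of them recognise transposable elements. B1 SINEs are short, abundant rodent elements derived from 7SL RNA. AP-1 is a dimer of FOS and JUN family proteins that binds many fibroblast enhancers through the core motif TGACTCA or TGAGTCA, which read as each other's complement. The deposited list gives each peak a signal value, which compares Dam-ZFP266 with Dam only on a scale that the methods do not state, and a q-value.

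Peaks in the genes described here were searched for these sequence features. An AP-1 core motif was found in 812 of 1990 peaks (40.8%) and a B1 copy in 580 (29.1%). The shares were 42.4% and 39.1% for peaks in other genes, and 46.2% and 30.9% for peaks outside genes. The first set of sequences shows the AP-1 core in capitals with its surroundings, on the plus strand of GRCm38. For each gene it is the core nearest the midpoint of the strongest peak that held one. The genes are 3 with 19 or 20 peaks, the 2 with the highest density of peaks, and *Smad3*, which was added after its values were seen.
Sik3, chr9:46114681-46114740: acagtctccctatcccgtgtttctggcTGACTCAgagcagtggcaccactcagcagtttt
Nrg1, chr8:31830887-31830946: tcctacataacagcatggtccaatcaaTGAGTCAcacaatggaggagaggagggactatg
Ltbp1, chr17:75045096-75045155: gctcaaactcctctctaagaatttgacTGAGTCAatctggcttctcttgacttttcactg
Zfp37, chr4:62200542-62200601: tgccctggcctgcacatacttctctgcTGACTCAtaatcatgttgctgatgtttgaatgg
Zfp945, chr17:22866532-22866591: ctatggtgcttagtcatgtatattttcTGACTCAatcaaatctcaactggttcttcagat
Smad3, chr9:63671780-63671839: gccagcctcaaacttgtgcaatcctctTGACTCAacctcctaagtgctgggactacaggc

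The second set shows the B1 copy most like a B1 query of 152 bases, built from copies in the genome, among those lying wholly inside a peak of the gene. Each is written 5′ to 3′ in the orientation of the element, and capitals mark its longest run without a difference from the query. *Sik3* and *Arhgap10* were among the 5 genes with the most peaks that held a B1 copy, and *Trim24* held the second-highest signal value of any peak in these genes (2.07). The copy shown from *Trim24* lies in another of its peaks, with a signal value of 0.95.
Trim24, chr6:37902804-37902953, minus strand: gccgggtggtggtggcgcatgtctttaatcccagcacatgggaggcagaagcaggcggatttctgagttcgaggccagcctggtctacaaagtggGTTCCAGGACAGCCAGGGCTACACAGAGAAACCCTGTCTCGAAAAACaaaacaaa
Sik3, chr9:46036115-46036265, plus strand: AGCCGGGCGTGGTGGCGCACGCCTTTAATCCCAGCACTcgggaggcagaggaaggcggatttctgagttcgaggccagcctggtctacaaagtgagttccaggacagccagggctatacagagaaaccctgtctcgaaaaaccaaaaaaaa
Arhgap10, chr8:77443699-77443851, plus strand: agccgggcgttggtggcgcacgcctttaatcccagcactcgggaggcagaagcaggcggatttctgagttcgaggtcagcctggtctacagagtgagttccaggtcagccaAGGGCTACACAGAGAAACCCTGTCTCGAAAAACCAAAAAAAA
The copy in *Sik3* was 97.4% identical to the query and the one in *Trim24* 93.3%. The same AP-1 core was present in 25.1% of the windows of 1800 bases that tile the autosomes, and a B1 copy in 17.2%, against a median peak length of 1813 bases. Peak lengths vary around that median, and longer peaks held both features more often. Among peaks of 1 to 2 kb in these genes 34.3% held the core and 26.6% a B1 copy.

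Most of the genes with 5 or more peaks were long. Their median length was 180 kb, with an interquartile range of 110 to 297 kb, against 16.9 kb over all genes, 13.1 kb over the 16519 genes with no peak and 58.7 kb over the 3223 genes with 1 to 4 peaks. The share of genes that reached 5 peaks was 0.00915% under 20 kb (1 gene) and 0.108% from 20 to 50 kb (5 genes). It was 2.31% from 50 to 100 kb (52 genes), 7.33% from 100 to 200 kb (96 genes), 13.5% from 200 to 400 kb (79 genes), 13.6% from 400 to 800 kb (31 genes) and 16.9% at 800 kb or more (14 genes). The share therefore climbed with length up to 400 kb, and the values beyond it rest on fewer genes, 31 and 14.

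**Figure D1:**
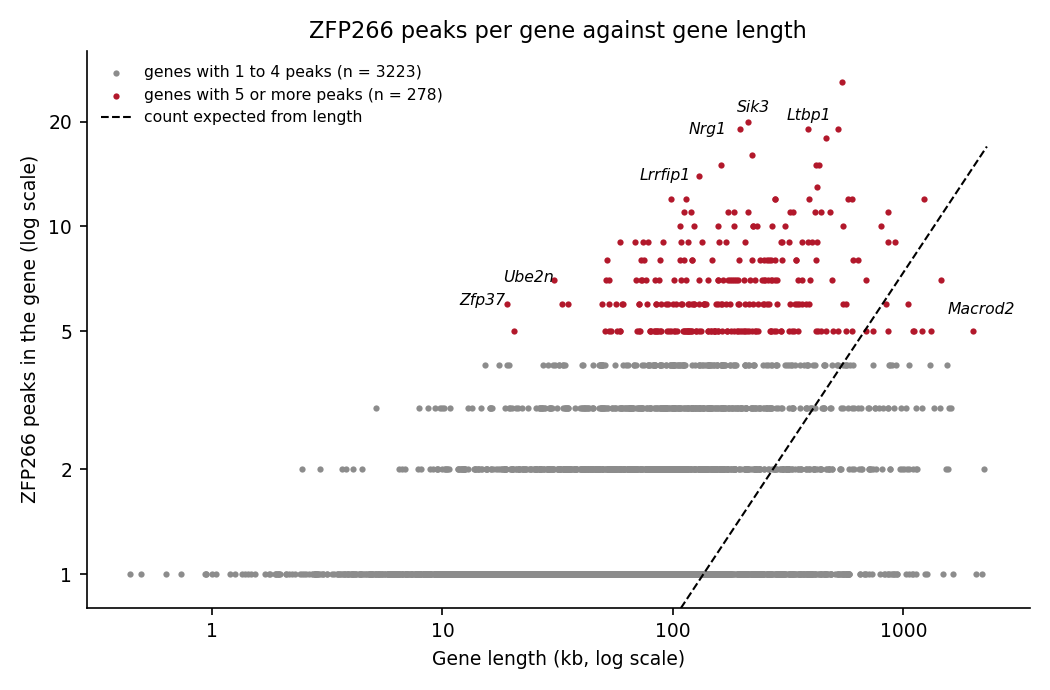
Number of ZFP266 peaks in each gene (log scale) against gene length in kb (log scale), with 1 point for each gene that held a peak. The dashed line is the count that the mean density of all gene bodies gives for a length, and it reaches 5 peaks at 677 kb, so the genes with 5 or more peaks (red) that are shorter lie above it by choice.

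Each count was set beside the one expected from length. Gene bodies held 0.738 peaks per 100 kb on average, and a gene had to be 677 kb long to be expected to hold 5. Only 112 genes were that long, and 17 of them held 5 or more peaks, 95 held fewer and 23 held none. The 278 genes made up 7.54% of the bases of all genes and held 28.7% of all pairs of a gene and a peak, a density of 2.81 peaks per 100 kb against 0.569 in the other genes. In 267 of them the count was above the one expected from length, and in 225 the exact Poisson interval of the count also lay above it. The choice fixes the first of these counts for every gene shorter than 677 kb and the second for the shorter of them, so both are descriptions. The median ratio of observed to expected was 5.1. In 52 genes the interval held the expected count, and in 1, *Macrod2*, it lay below.

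**Figure D2:**
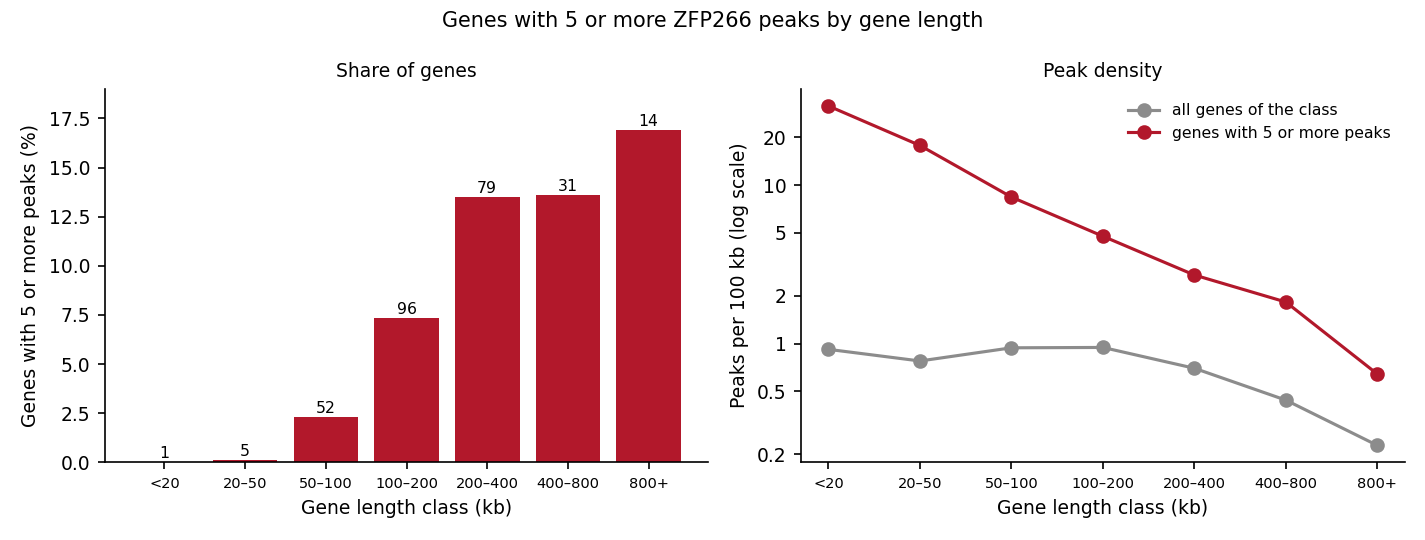
Left, the percentage of genes in each length class (kb) with 5 or more ZFP266 peaks, with the number of such genes above each bar. Right, peaks per 100 kb (log scale) in all genes of the class (grey) and in genes with 5 or more peaks (red), which in the longest class were 0.228 and 0.643.

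The threshold of 5 peaks cut through a continuous distribution. There were 156 genes with 4 peaks, 95 with 5, 58 with 6 and 42 with 10 or more. Genes with 4 peaks had a median length of 137 kb and 2.93 peaks per 100 kb, and genes with 5 had 152 kb and 3.29. The shortest genes with 4 peaks included *Eif4ebp1*, a repressor of cap-dependent translation, with 26.1 per 100 kb, and *Hdac2*, a histone deacetylase, with 14.6, both denser than most of the genes above the threshold. The longest included *Nrxn3* and *Pde4d*, at 0.26 and 0.307 per 100 kb.

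*Sik3*, a salt-inducible kinase, held 20 peaks in 211.4 kb (chr9:46012820-46224194). Of these, 18 had their midpoint in a first intron, 11 lay within 50 kb and 9 held a B1 copy. The gene body of *Sik3* carried 27.9 B1 copies per 100 kb.

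*Nrg1*, a growth factor for ERBB receptors, *Ltbp1*, which holds latent TGF-beta in the matrix, and *Rad51b*, a homologous recombination factor, each held 19. *Nrg1* was the densest of the 3, with 9.75 peaks per 100 kb over the 195 kb of its curated transcripts (chr8:31814551-32009504), and the stretch from its first to its last peak covered 96.7% of the gene. The 19 peaks of *Ltbp1* (chr17:75005529-75392512) had signal values from 0.531 to 1.70, and 9 of them held an AP-1 core motif while 3 held a B1 copy. In *Rad51b* 5 peaks held an AP-1 core and 1 a B1 copy.

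The next counts were 18 in *Pakap*, 16 in *Lhfp*, and 15 each in *Tspan5* (a tetraspanin), *Atxn1* (a transcriptional corepressor) and *Kcnab1* (a potassium channel subunit). *Lrrfip1* held 14 and *Glis3*, a zinc finger transcription factor, 13. *Trim24*, a chromatin reader with a bromodomain, *Lamc1*, the laminin gamma 1 chain, and *Ext1*, which polymerises heparan sulfate, held 12 each, as did 5 other genes. The 12 peaks of *Trim24* were packed into 31.3 kb, all in its first intron. *Lrrfip1* was alike, with 12 of its 14 peaks inside 50 kb and 13 at a q-value under 0.05. *Atxn1* and *Glis3* were spread out, their peaks spanning 89.9% and 88.9% of the gene.

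**Figure D3:**
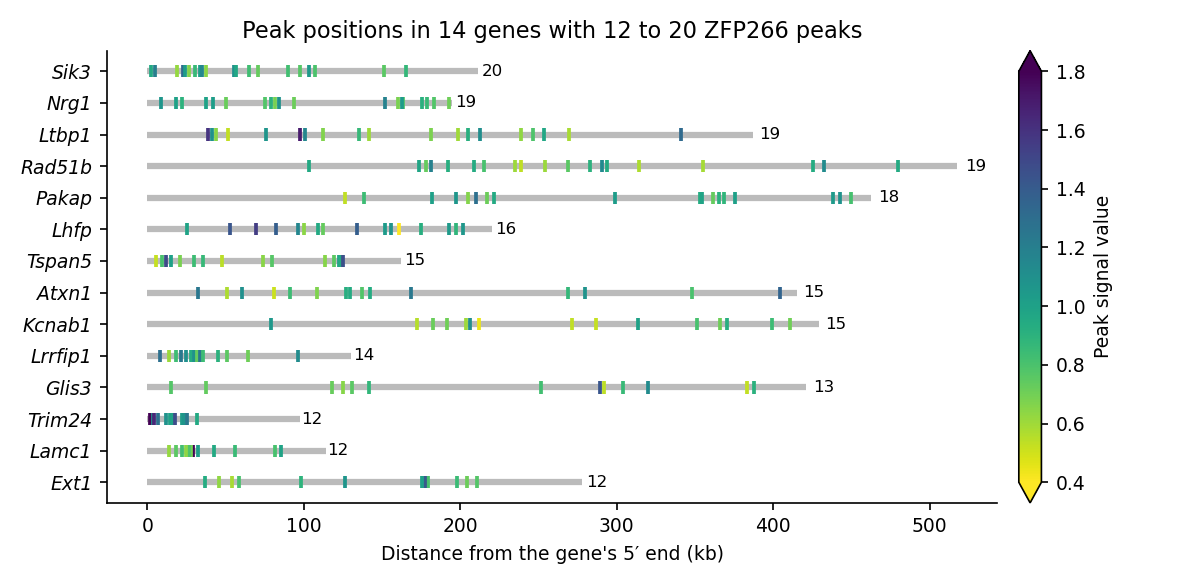
Positions of the peaks (vertical marks, coloured by signal value) in 14 genes with 12 to 20 ZFP266 peaks, plotted as distance in kb from the gene's 5′ end, with the number of peaks at the right. The 12 marks of *Trim24* crowd within the first part of the gene, and those of *Rad51b* begin far from its 5′ end.

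The densest genes were short. *Zfp37*, itself a zinc finger gene, was the shortest of all (19.01 kb, chr4:62189537-62208546) and held 6 peaks, or 31.6 per 100 kb. Their signal values were 1.37, 1.20, 1.00, 0.900, 2.16 and 0.915 from the 3′ to the 5′ end of *Zfp37*. The value of 2.16 was the highest of any peak in the 278 genes, and that peak held 2 AP-1 cores, 1 of them shown above, and no B1 copy. *Zfp945* (20.44 kb, chr17:22846697-22867134) had 5 peaks with signal values from 0.542 to 1.12, none with a B1 copy, and its first peak ran over the 5′ end. The midpoint lay in an exon for 3 of the 6 peaks of *Zfp37* and 2 of the 5 of *Zfp945*, against 1.06% of all peaks in the 278 genes. Both genes belong to large families of similar genes, and the study's methods do not say how reads that fit several places were assigned.

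*Ube2n* (30.5 kb), a ubiquitin-conjugating enzyme, held 7 peaks and *Ywhae* (32.95 kb), a phosphoserine-binding adaptor, held 6. In each of them 5 peaks held a B1 copy, and their gene bodies carried 49.2 and 54.6 B1 copies per 100 kb. *Nr1d2*, the clock repressor REV-ERB beta, held 6 peaks in 35.05 kb, 5 of them with a q-value under 0.05. *Spin1*, a histone methylation reader, *Uck2*, a nucleoside kinase, *Larp1*, an RNA-binding regulator of translation, and *Fam107b* were also among the 10 densest, with 13.1 to 15.5 peaks per 100 kb. *Larp1* had 5 of 7 peaks with a B1 copy, and *Fam107b* none of 9. Between the densest genes the B1 content of the peaks thus ran from none to most.

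At the other end stood the longest genes. *Macrod2*, an ADP-ribosylhydrolase, spans 1995 kb and held 5 peaks where 14.7 were expected. They lay 396.6 to 1196 kb from the 5′ end of *Macrod2*, with no 2 of them within 50 kb of each other. *Lrrc4c*, a netrin-G ligand, held 5 against 9.7 expected, *Prkg1*, a cGMP-dependent kinase, 5 against 8.87, and *Auts2*, *Anks1b* and *Cdh13* 5 or 6 against 7.69 to 8.17. *Erc2*, *Iqschfp* and *Sugct* were also below expectation. *Nckap5* and *Celf2* held 9 each, at 1.33 and 1.42 times expectation. All 5 peaks of *Lrrc4c* had q-values of 0.05 or more, as did every peak of *Gsk3b*, *Etv6*, *Mllt3*, *Pde7b* and *Tshz2*. Genes of the same size with no peak at all included *Ptprd* (2271 kb, 16.8 expected), *Cntn5*, *Csmd3*, *Ccser1*, *Ptprt*, *Dab1*, *Nrg3*, *Erbb4*, *Ntm* and *Epha6*.

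Groups of genes with a role in fibroblasts were looked at next. The cytoskeletal scaffolds had 11 of 36 genes with 5 or more peaks, led by *Utrn*, which ties actin to dystroglycan (11 peaks), *Dst*, a spectraplakin (9), *Myo1e*, a class I myosin (8), and *Fmnl2*, a formin (8). Their 36 genes held 1.64 times the peaks expected from length. Focal adhesion and actin linker proteins had 5 of 45, with *Lpp* at 12 peaks, *Pdlim5* at 7, *Tns3* at 6 and *Fermt2*, an integrin activator, at 5, and 2.15 times the expected peaks. Among integrin subunits only *Itgav*, the alpha V chain, was included (1 of 26, 5 peaks), and among collagen chains *Col4a2* with 6 peaks and *Col18a1* with 5 (2 of 42). DOCK proteins and other regulators of small GTPases had 8 of 73, led by *Arhgap10* (10 peaks), *Trio* (9), *Arhgef3* (8) and *Arhgap42* (6). The ratios were 1.28 for integrin subunits, 1.19 for collagen chains and 1.32 for the GTPase regulators.

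The genes of TGF-beta signalling held 3.36 times the peaks expected from length, and 4 of 40 reached 5 peaks, while 22 held none. *Ltbp1* keeps the ligand latent, *Tgfbr3* is a co-receptor (7 peaks), *Bmpr2* a type II receptor (7 peaks) and *Smad3* the transcription factor that carries the signal to the nucleus (11 peaks). *Smad3* (111.2 kb, chr9:63646767-63757994) held 9.89 peaks per 100 kb, with signal values of 0.480 to 1.19, and 10 of its peaks lay in a first intron. In *Bmpr2* 6 of 7 peaks held a B1 copy, and in *Smad3* 1 of 11. Without *Ltbp1* and *Smad3*, the other 38 genes of the list held 43 peaks, a ratio of 2.39, below the 2.67 of the AP-1 subunit genes.

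Among transcription factors of fibroblasts and mesenchyme 4 of 49 were included: *Glis3*, *Tcf4* (6 peaks), *Tead1* (5) and *Foxp1* (5). No AP-1 subunit gene was (0 of 19), and *Maff*, with 2 peaks, had the most; their median length was 8.24 kb, and they held 7 peaks where 2.62 were expected from length. Receptor tyrosine kinases and phosphatases had 7 of 54, led by *Ddr2*, a collagen receptor, at 9 peaks, *Ror2* and *Ptprg* at 7 and *Igf1r* at 6, yet held 0.655 times the peaks expected from length. Phosphodiesterases had 2 of 24 (*Pde1a* and *Pde7b*), at a ratio of 0.672, and cadherins 3 of 90 (*Cdh23*, *Cdh13* and *Cdh2*), at 0.925. Against the mean of their own length classes the ratio was 0.96 for the receptor tyrosine kinases and phosphatases. It was 0.841 for phosphodiesterases and 1.04 for cadherins. Zfp genes had 5 of 383: *Zfp37*, *Zfp148*, *Zfp609*, *Zfp945* and *Zfp704*. Olfactory receptors had 0 of 1097, and their median length was 0.948 kb. By length the ratios were 1.14 for the transcription factors, 1.58 for Zfp genes and 0.419 for olfactory receptors.

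The 2 lists with the longest genes are given last. The synaptic and neural adhesion genes had a median length of 746 kb, yet only 5 of 84 reached 5 peaks, *Nrg1*, *Dlgap1*, *Auts2* and *Lrrc4c* among them, and their peaks were 0.286 times those expected from length. Against the mean of their own length classes the ratio was 0.671. The genes of common fragile sites had 4 of 9, *Prkg1* and *Macrod2* among them. Their ratio was 0.804 by length and 2.49 by length class, so its side of 1 depended on the measure. All these lists were drawn up with earlier results of these data known, and the shares are to be read against the 1.39% of all genes and the shares by length given above.

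The density of peaks varied with the distance from the start of the gene. Inside the 278 genes the density was 1.8 peaks per 100 kb (95% Poisson interval 0.584 to 4.2) within the first kb from the 5′ end, counted by peak midpoints. It rose to 8.03 (6.23 to 10.2) from 2 to 5 kb, 8.63 from 5 to 10 kb and 8.38 from 10 to 20 kb. It then fell to 5.36 from 20 to 50 kb, 3.62 from 50 to 100 kb, 2.34 from 100 to 200 kb and 1.26 (1.08 to 1.45) from 200 to 400 kb. In the other genes of 50 kb or more the density was 0.836 per 100 kb in the first kb, 1.12 from 1 to 2 kb, 1.44 from 2 to 5 kb, 1.03 from 10 to 20 kb and 0.203 from 200 to 400 kb, so that their first kb was above every bin beyond 20 kb. The far bins hold fewer and longer genes, 124 of the 278 beyond 200 kb, while 277 reached the bin from 20 to 50 kb. Every chosen gene has at least 5 peaks, and among them density fell with length (Spearman correlation -0.89). In the far bins, position and gene length therefore cannot be told apart.

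**Figure D4:**
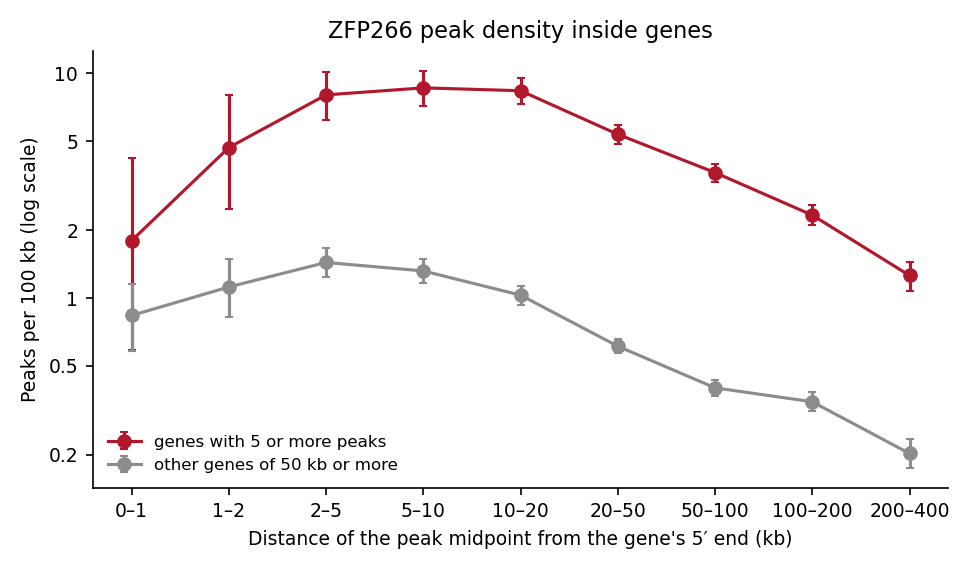
Peaks per 100 kb (log scale) by the distance of the peak midpoint from the gene's 5′ end in kb, in genes with 5 or more peaks (red) and in other genes of 50 kb or more (grey). Bars are 95% Poisson intervals for counting error only. The red line is lowest at 200 to 400 kb and next lowest in the first kb, and highest from 2 to 20 kb. The grey line starts at 0.836, peaks at 1.44 from 2 to 5 kb and falls from there to 0.203.

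Only 8 of the 278 genes had a peak over their 5′ end, and the median distance from the 5′ end to the nearest peak was 10.8 kb. In 42 genes the nearest peak began within 2 kb, as in *Trim24* (0.847 kb), *Lpp* (1.44 kb) and *Utrn* (1.55 kb). In 47 it began beyond 50 kb, as in *Pakap* (124.7 kb). Promoters were taken as 1000 bases before to 100 bases after any curated transcript start, of the same gene or of another. They held the midpoint of 11 of the 1990 peaks (0.553%), against 3.97% in other genes. These peaks lay in 11 genes that included *Mbnl2*, *Arhgap10*, *Klf13* and *Hipk2*. The nearest peak began 19.02 kb from the gene's own 5′ end in *Arhgap10*, 13.51 kb in *Klf13* and 25.07 kb in *Hipk2*. The midpoint lay in an exon in 1.06% of peaks, against 5.31% in other genes, and 7.44% touched an exon, against 26.5%. Shorter genes consist of more exon and promoter per base, and the part of length in these differences was not tested.

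First introns held the midpoint in 1150 of 2003 pairs of a gene and a peak (57.4%), and made up 33.4% of the bases of these genes. The share in first introns was not measured in other genes. Of midpoints inside the gene, 30.6% lay in the first of 5 equal parts from the 5′ end, against 34.9% in other genes. At least 1 such peak was found in 233 of the 278 genes. In *Tspan5*, *Ext1*, *Efna5*, *Trim24* and *Maml2* every peak lay in a first intron, and in *Rad51b*, *Lhfp*, *Atxn1* and *Glis3* none did.

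Peaks of a gene often sat close together. The median distance between neighbouring peaks was 5.76 kb, and of 1725 such gaps 381 (22.1%) were under 1 kb and 817 (47.4%) under 5 kb. Of these 817, 130 (15.9%) consisted of 1 GATC fragment that was not called, with a median of 233 bases, so that some neighbours may be counted as separate peaks across 1 short fragment. At least 5 peaks within 50 kb were found in 159 genes. In 68 genes all peaks lay within 50 kb, as in *Spin1* (8 peaks in 20.9 kb), *Larp1* (7 in 18.7 kb) and *Ywhae* (6 in 11.0 kb). When peaks under 5 kb apart were joined, 111 genes still had 5 or more, and 200 when peaks under 1 kb apart were joined.

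The peaks themselves were compared with those elsewhere in length and signal. The median length was 1813 bases, against 1790.5 in other genes and 1761 outside genes. The median signal value was 0.864 against 0.88 and 0.913, and the interquartile range in these genes was 0.713 to 1.04. These differences of medians were not tested. A q-value under 0.05 was reached by 1094 of the 1990 peaks (52.8 to 57.1%), against 50.7% in other genes. More of them covered several GATC fragments, 51.0% against 45.5%, a difference of 5.49 percentage points (2.88 to 8.08), and 9.5% were 4 kb or longer against 7.97%. After *Zfp37*, high signal values were found in *Trim24* (2.07), *Syne3*, a nuclear envelope protein (1.88), and *Sorbs2*, an actin adaptor (1.86), each an intronic peak of 1061 to 1736 bases. The longest peak, 93799 bases in *Sgms2*, consisted of 3 fragments, and 89954 of its bases were an assembly gap. Among all peaks in these genes 4 ran over such gaps, and the longest without one had 9639 bases.

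A B1 copy was found in 29.1% (27.2 to 31.2) of the peaks, in 39.1% of peaks in other genes and in 30.9% of those outside genes. The difference from other genes (interval -12.4 to -7.55 percentage points) moved with gene length. In genes of 50 to 100 kb the shares were 40.1% and 44.9%, from 100 to 200 kb 37.1% and 35.2%, from 200 to 400 kb 22.6% and 22.1%, from 400 to 800 kb 16.2% and 13.9%, and at 800 kb or more 10 of 100 peaks and 13.2%. In each of these 5 classes the interval of the difference held 0. Windows of 1800 bases that touched no peak in the 278 genes held a B1 copy in 16.2% of cases. Counted over whole gene bodies, B1 copies were denser in the chosen genes than in others of their length. The medians were 20.2 and 15.4 per 100 kb from 50 to 100 kb, 14.5 and 10.1 from 100 to 200 kb, and 8.39 and 6.06 from 200 to 400 kb. These counts include the copies inside the peaks by which the genes were chosen, and medians without those copies were not measured. GATC sites were no denser, with medians of 2.34 per kb in both groups from 50 to 100 kb and 2.31 and 2.37 from 200 to 400 kb.

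Single genes ranged widely. Every peak held a B1 copy in *Med26*, a Mediator subunit, *Luzp1* and *Fbxw11*, an F-box protein, with 5 peaks each. *Arhgap10* had B1 copies in 8 of 10 peaks and *Ankrd11*, a chromatin regulator, in 7 of 9. In 54 genes no peak held one, among them *Irf2*, *Agap1*, *Me3* and *Camta1* with 10 or 11 peaks each. Across the 278 genes the density of peaks and that of B1 copies had a Spearman correlation of 0.46. Both fall with length, which correlated with the density of peaks at -0.89 among genes that by choice have at least 5 peaks each.

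An AP-1 core motif was found in 40.8% (38.7 to 43.0) of the peaks, against 42.4% in other genes, a difference of -1.58 points (-4.13 to 1.0), and 46.2% outside genes, a difference of -5.39 points (-7.8 to -2.96). Within length classes the share was lower than in other genes from 50 to 100 kb, 30.6% against 41.8% (difference -11.2 points, -16.7 to -5.28), and from 200 to 400 kb, 43.0% against 53.6% (-10.6 points, -16.3 to -4.75). From 100 to 200 kb it was 42.3% and 42.9%, and the interval of the difference held 0, as it did from 400 to 800 kb and above. These intervals treat peaks as independent, which peaks of 1 gene are not. Windows that touched no peak in the 278 genes held the motif in 26.3% of cases. The share grew with peak length, from 18.8% under 1 kb to 73.5% at 4 kb or more. Every peak of *Kcmf1* held a core, and none of those of *Rere*, *Rell1*, *Rras2*, *Ppp6r3*, *Cdyl*, *Piezo1*, *Rabep1*, *Ppp1r12a* and *Lrrc4c*. Both features together were seen in 11.4% of the peaks and neither in 41.4%.

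**Figure D5:**
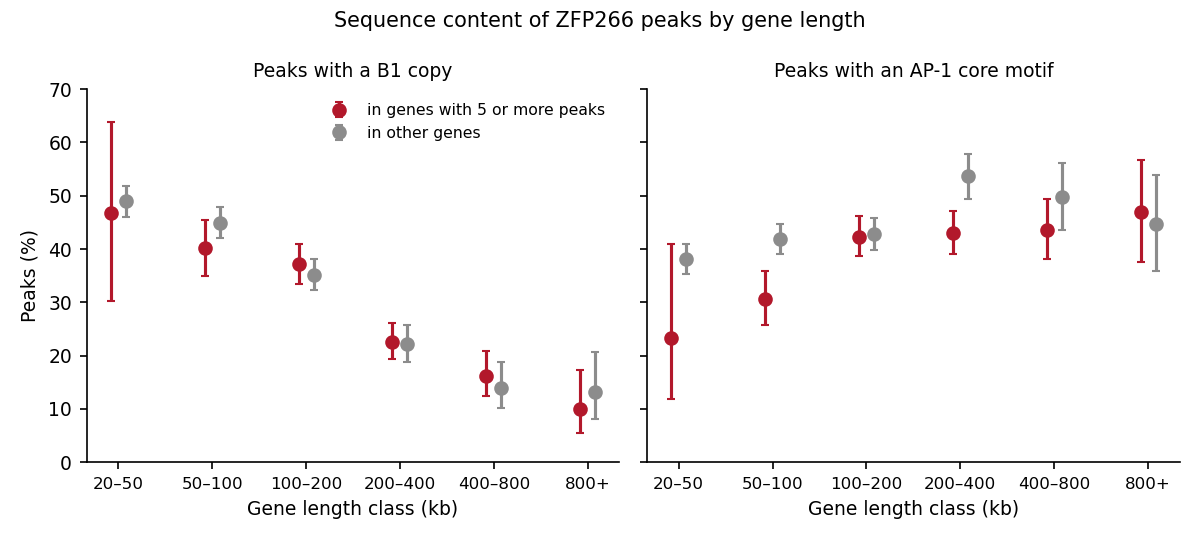
Percentage of ZFP266 peaks with a B1 copy (left) and with an AP-1 core motif (right) by gene length class in kb, in genes with 5 or more peaks (red) and in other genes (grey). Bars are 95% Wilson intervals for counting error only, a peak in several genes counts in each, and the class under 20 kb, with 6 peaks in the chosen genes, is left out. The B1 share falls with gene length in both groups, from 40.1% at 50 to 100 kb to 16.2% at 400 to 800 kb in the chosen genes.

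Peaks were also more frequent beside these genes, a measure the choice did not use directly. In the 100 kb on either side the density was 1.36 peaks per 100 kb, against 0.832 beside other genes. By length it was 1.81 and 0.884 from 50 to 100 kb, 1.38 and 0.791 from 100 to 200 kb, 1.28 and 0.574 from 200 to 400 kb, and 1.08 and 0.327 from 400 to 800 kb. No peak lay in these flanks in 21.9% of the chosen genes (61) and in 37.6% of the others. Flanks can hold parts of neighbouring genes and of the same run of peaks, and no test was made.

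The 278 genes were found on each of the 19 autosomes, from 5 on chromosome 12 to 25 on chromosome 10. The share of genes chosen was highest on chromosome 10 (2.56%) and lowest on chromosome 7 (0.507%). These shares were not set against the lengths of the genes on each chromosome. Few peaks were counted for more than 1 of them: *Cmss1* and *Filip1l*, and *Schip1* and *Iqschfp*, share 13 peaks, since the members of each pair overlap. The 5 peaks of *Schip1* are those of *Iqschfp*, a fusion transcript annotated as its own gene.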

How the data were processed

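DamID-seq was analysed from 5 Dam-ZFP266 and 5 Dam only samples of MEFs. The authors checked reads with FastQC, removed adapters with Cutadapt, aligned them with BWA (GRCm38.p6 per the labels), removed mitochondrial and blacklisted reads, used Rsubread to count the reads of each DpnII fragment and Daim to call peaks over all samples. Their versions are not given in the sources used here. The labels name total RNA as the molecule, while the protocols describe genomic DNA.

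The deposited list gives, from the authors' peak caller, a score (415 to 1000), a signal value and a −log10 q-value per peak. A −log10 p-value column was not used. The list reaches a q-value of 0.1, and 52.5% of peaks were under 0.05. Values of single samples did not enter, and depth is unknown.

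Peaks overlapping a gene body by at least 1 base were counted for curated RefSeq protein-coding genes of the autosomes. The expected count is gene length times the mean density of gene bodies. B1 copies were found with blastn 2.17.0 (e-value 10, at least 80 bp at 70% identity) and a query built from genomic copies named B1 in the study's peak annotation. AP-1 cores were exact matches. Sequences are from RefSeq's GRCm38 assembly. Intervals are 95% Wilson for shares, Newcombe for differences of shares and exact Poisson for counts. Counting was tested on simulated peaks. Python 3.11.15 with numpy 2.4.6, pandas 2.3.3, scipy 1.17.1, pyfaidx 0.9.0.4 and matplotlib 3.10.9 was used.

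Genes named are the 15 with the most peaks, the 10 densest, longest and least dense, the 5 shortest, up to 4 of each list, the 10 longest genes without a peak, the 5 longest and shortest with 4, and those of the 5 strongest peaks and the longest. Some genes that these rules pick are not reported here. Other names, such as those in counts of first introns, promoters, B1 copies and AP-1 cores, were chosen after their values were seen. The genes and lists were chosen with earlier results of these data known. Alternatives covered the overlap rule, peak strength, joining of peaks, annotation, threshold, expected density and feature definitions.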

Additional observations from a re-analysis of the deposited data

How the results depend on the processing

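The number of genes with 5 or more peaks was 276 by peak midpoint or by at least 50% of the peak, 200 with peaks under 1 kb apart joined, 300 with all RefSeq transcripts (all 278 among them) and 314 with GENCODE vM21 (273 among them). It was 81 with the upper 50% of the score ranking, 11 with peaks of q under 0.05 and signal above 1 (3986 of 15119 peaks), and 111 with peaks under 5 kb apart joined, and 434 and 183 at thresholds of 4 and 6 peaks. The median length of 180 kb became 220 kb under the strict peaks, 222 kb with the upper 50% of the ranking, 220 kb when joined at 1 kb and 277 kb at 5 kb. The number of genes above their expected count, 267, was between 226 and 278 under its 4 alternatives. The AP-1 share of 40.8% became 13.1% in the central 500 bp and 47.5% with 1 peak a gene. The B1 share of 29.1% became 19.3% at 100 bp and 85% identity and 33.7% with 1 peak a gene. The median signal was 0.967 with q under 0.05, and the median peak length 1417.5 bp in strict peaks. The central 500 bp are a narrower sequence than the whole peak, and the stricter B1 version asks for a longer and closer match in the same sequences. The cause of the other shifts was not tested. No paired analysis was possible because the list pools all samples, and for the same reason no sample could be left out.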

Other observations

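The X chromosome was outside the choice of genes. It held 351 peaks, and 5 of the 979 protein-coding genes of X and Y had 5 or more: *Hs6st2*, a heparan sulfate sulfotransferase, with 9, *Tbl1x*, a subunit of a nuclear receptor corepressor complex, with 8, *Lancl3* with 7, and the long genes *Frmpd4* and *Il1rapl2* with 5 each. *Stag2*, a cohesin subunit, and *Kdm6a*, a histone demethylase, were among those with 4. *Zfp266* itself had 5 peaks in 26.4 kb with signal values from 5.24 to 8.66, above the highest value of 2.16 in the 278 genes; the study's methods name the *Zfp266* sequence of the plasmid as a source of signal over its exons.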
